A study of Homo sapiens with 4 samples.

Results

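Untreated cells of 2 human prostate cancer lines, 22Rv1 and PC3, were compared gene by gene at the level of messenger RNA, with 1 sequencing library on each side. 22Rv1 is a carcinoma line derived from a xenograft that regrew after castration of its host. PC3 came from a prostate cancer that had spread to bone, and its growth does not need androgen. The untreated 22Rv1 cells were kept in RPMI and the untreated PC3 cells in F12, both with heat-inactivated fetal bovine serum and antibiotics, so cell line and medium cannot be told apart. The series holds 4 libraries, and the other 2 came from the same lines after 6 h with morusin, a prenylated flavone, at 75 µM for 22Rv1 and 46 µM for PC3. Levels are FPKM, fragment counts scaled to transcript length and to the total of the library. The difference is given as a log2 ratio, log2 of 22Rv1 FPKM + 1 over PC3 FPKM + 1, so that positive values mean a higher level in 22Rv1. Of 60617 gene entries, 14342 reached 1 FPKM in at least 1 of the 2 untreated libraries and were compared, after 509 entries on the Y chromosome had been left out.

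With 1 library a side there was no spread between replicates, and no p-value is given. A gene is called higher here when its level + 1 was at least 2-fold that of the other line. The nearest thing to a repeat was the morusin-treated pair, which shares no library with the untreated pair but differs in dose between the lines. The estimated depths were 23.4 M (mega) read pairs for untreated 22Rv1 and 40.5 M for untreated PC3, and 12687 and 12608 genes reached 1 FPKM. Counting error alone was small against most differences, with a median standard error of 0.039 on the log2 scale for the 7259 genes at 5 FPKM or more in both lines. It covers counting error only and refers to the ratio without the added 1.

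Prostate epithelium is built from luminal cells, which make the secreted proteases of seminal fluid under control of androgens, and basal cells, which sit on the basement membrane. Androgens switch on genes such as the kallikreins in these luminal cells. Epithelial cells are held together by E-cadherin and its catenin partners, and carcinoma cells that lose them often take up a mesenchymal set of cadherins, integrins and proteases.

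The lines differed at a large share of their genes. In 22Rv1, 2830 genes (19.7%) were at least 2-fold higher, and in PC3 2751 genes (19.2%), together 38.9% of those compared. Counts for the gene groups below are to be read beside these shares. Group counts and medians cover members at 1 FPKM in at least 1 untreated line. A member low in 1 line therefore entered through the other. The genes just inside and just outside the limit had log2 ratios of 1.00008 and 0.999993 on the 22Rv1 side and absolute log2 ratios of 1.00007 and 0.99921 on the PC3 side. Wide gaps were more frequent on the PC3 side, with 506 genes at a log2 ratio of -3 or below against 314 at 3 or above, and 107 at -5 or below against 40 at 5 or above. Across all genes compared the median log2 ratio was 0.10, with quartiles at -0.70 and 0.82. Centring the ratios on genes at 5 FPKM or more in both lines brought that median to 0.00, with 2457 genes then higher in 22Rv1 and 3042 in PC3. Protein-coding genes were split nearly evenly, with 2308 of 12338 higher in 22Rv1 and 2417 in PC3. Among 1101 long noncoding RNA genes 299 were higher in 22Rv1 and 230 in PC3, and among 662 pseudogenes the counts were 167 and 68.

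The treated pair gave much the same picture. Of the genes higher in untreated 22Rv1, 85.7% were also at least 2-fold higher in 22Rv1 between the treated libraries, and for the PC3 side the share was 81.5%. In the treated pair as a whole 25.4% of genes were higher in 22Rv1 and 18.6% in PC3. Both 22Rv1 libraries lay above both PC3 libraries for 2807 of the 2830 genes (99.2%), against 42.7% of all genes compared. Both PC3 libraries lay above both 22Rv1 libraries for 2704 of the 2751 (98.3%), against 34.5% of all. The untreated libraries that selected these genes are also part of these 2 counts. Their high shares were therefore partly fixed by the selection and are not a repeat. The absolute log2 ratio between untreated lines had a median of 0.77, while that between treated and untreated cells of 1 line was 0.29 in 22Rv1 and 0.22 in PC3. Whether treated and untreated cells of a line came from the same culture is not given, and this spread may be smaller than that between independent cultures.

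**Figure D1:**
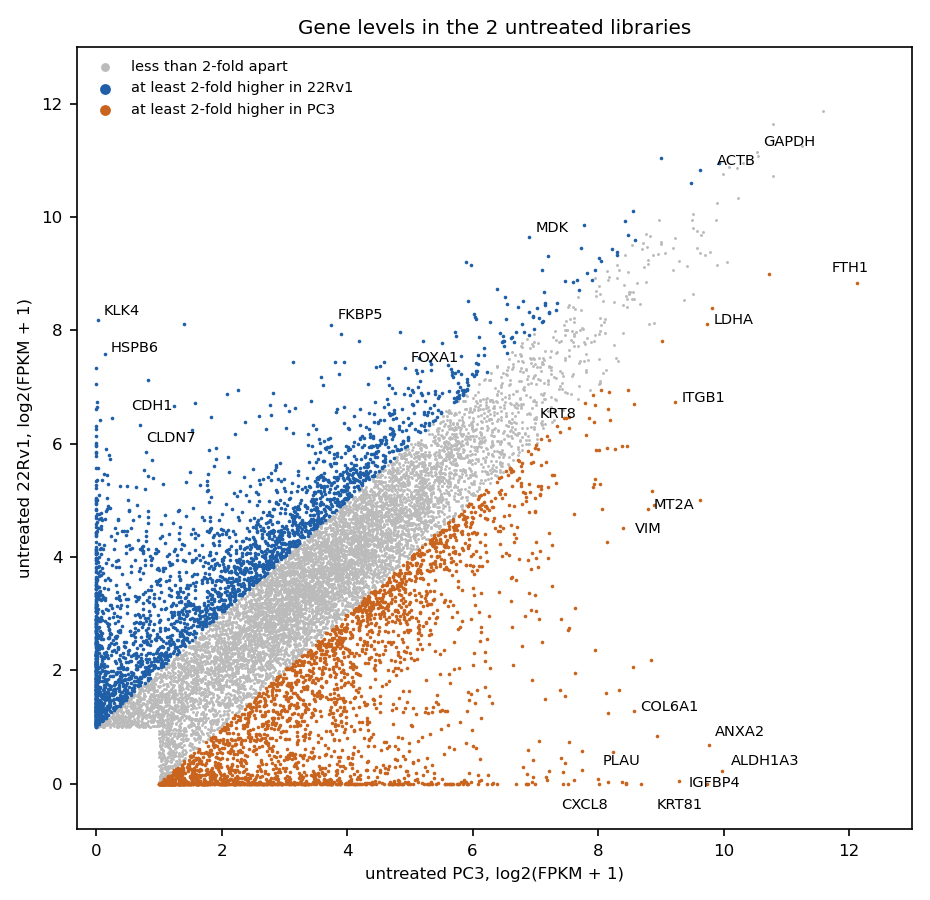
Each point is 1 of 14342 genes, with its level in untreated PC3 on the horizontal axis and in untreated 22Rv1 on the vertical axis, both as log2(FPKM + 1). Blue points are at least 2-fold higher in 22Rv1 and orange points at least 2-fold higher in PC3, and KLK4 and ALDH1A3 lie far from the diagonal on opposite sides, at log2 ratios of 8.15 and -9.74.

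A stricter description asked which genes were present in 1 line and nearly absent from the other, at 5 FPKM or more against under 0.1 FPKM. There were 214 such genes in 22Rv1 (1.49%), of which 186 were protein-coding and 121 were listed at exactly 0 in PC3. PC3 had 304 (2.12%), of which 263 were protein-coding and 162 were listed at 0 in 22Rv1. The same limits were met in the treated pair by 175 of the 22Rv1 genes (81.8%) and 212 of the PC3 genes (69.7%). The PC3 genes included more at high levels, 42 at 50 FPKM or more against 17 for 22Rv1. Several of these genes were neighbours on a chromosome, such as the 5 chemokine genes CXCL8, CXCL6, CXCL1, CXCL3 and CXCL2 on chromosome 4, IFIT2, IFIT3 and IFIT1 on chromosome 10 and HOXA9, HOXA10, HOXA11 and HOXA13 on chromosome 7, all from PC3, and KLK2 and KLK4 on chromosome 19 from 22Rv1.

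The start regions of 10 genes that were present in 1 line and listed at 0 in the other are shown to let the kallikreins of 22Rv1 be read beside the chemokine, interferon-response and glutathione transferase genes of PC3. Each run is the 160 bases before the gene's start on its own strand, 5′ to 3′, from RefSeq on GRCh38.p14. Capitals mark TATAAA, the TATA box, TGANTCA, the letters bound by AP-1 dimers of Fos and Jun proteins, the NF-kB site, GGGAATTTCC with any base allowed at the fourth and the fifth position, and the interferon-stimulated response element, TTTCACTTTC with any base allowed at the fifth and the sixth position. The letters were searched on both strands, so a TATA box on the other strand reads TTTATA. These genes and the last 2 of the letter patterns were chosen after the levels had been seen.
KLK2 (chr19:50873279-50873438, plus strand): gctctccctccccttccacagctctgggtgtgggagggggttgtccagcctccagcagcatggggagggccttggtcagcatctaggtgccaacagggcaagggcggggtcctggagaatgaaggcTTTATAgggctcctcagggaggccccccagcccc
KLK3 (chr19:50854755-50854914, plus strand): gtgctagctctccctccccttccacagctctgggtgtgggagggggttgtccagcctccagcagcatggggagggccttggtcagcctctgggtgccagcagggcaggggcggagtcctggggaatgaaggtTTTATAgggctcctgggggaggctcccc
CXCL8 (chr4:73740409-73740568, plus strand): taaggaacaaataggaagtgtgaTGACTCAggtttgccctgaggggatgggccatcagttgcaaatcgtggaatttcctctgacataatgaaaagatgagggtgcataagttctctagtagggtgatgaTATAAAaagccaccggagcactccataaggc
CXCL6 (chr4:73836518-73836677, plus strand): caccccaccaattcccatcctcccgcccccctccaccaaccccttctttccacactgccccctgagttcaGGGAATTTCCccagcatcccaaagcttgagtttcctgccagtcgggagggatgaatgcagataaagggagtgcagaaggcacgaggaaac
CXCL1 (chr4:73869233-73869392, plus strand): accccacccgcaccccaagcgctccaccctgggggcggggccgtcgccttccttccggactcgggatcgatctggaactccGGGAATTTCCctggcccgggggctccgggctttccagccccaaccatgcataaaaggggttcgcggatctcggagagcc
CXCL3 (chr4:74038690-74038849, minus strand): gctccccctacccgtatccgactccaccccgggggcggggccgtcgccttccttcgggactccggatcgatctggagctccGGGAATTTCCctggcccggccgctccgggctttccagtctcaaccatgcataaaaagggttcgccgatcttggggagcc
CXCL2 (chr4:74099196-74099355, minus strand): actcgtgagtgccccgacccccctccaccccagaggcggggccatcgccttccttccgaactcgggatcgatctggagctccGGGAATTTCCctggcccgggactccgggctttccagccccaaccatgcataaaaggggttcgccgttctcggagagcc
IFIT3 (chr10:89327837-89327996, plus strand): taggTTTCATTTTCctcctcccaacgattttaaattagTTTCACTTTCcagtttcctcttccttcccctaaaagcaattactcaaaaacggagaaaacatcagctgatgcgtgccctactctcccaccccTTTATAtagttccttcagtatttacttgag
IFIT1 (chr10:89392463-89392622, plus strand): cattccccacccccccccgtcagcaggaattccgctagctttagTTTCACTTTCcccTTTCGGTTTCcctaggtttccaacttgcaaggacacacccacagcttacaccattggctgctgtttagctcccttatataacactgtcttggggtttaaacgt
GSTP1 (chr11:67583652-67583811, plus strand): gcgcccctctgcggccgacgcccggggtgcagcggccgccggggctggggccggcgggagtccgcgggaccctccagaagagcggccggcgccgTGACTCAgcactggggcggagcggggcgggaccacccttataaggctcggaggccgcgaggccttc

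In these windows KLK2 and KLK3 held the TATA letters at 34 and 28 bases before the start, and CXCL8 and IFIT3 held them at 31 and 30. The same NF-kB letters, GGGAATTTCC, stood 90 bases before the start of CXCL6, 79 before CXCL1 and CXCL3 and 78 before CXCL2. The CXCL8 window held tggaatttcc, which differs from the searched pattern at its first base and so was not marked. IFIT3 held the interferon-response pattern at 156 and 122 bases before its start and IFIT1 at 116 and 103, and the AP-1 letters stood at 137 bases in CXCL8 and 66 in GSTP1. Among 35116 promoter windows of this length, 4.41% held TGANTCA, 7.04% TATAAA, 1.20% the NF-kB letters and 1.88% the interferon-response letters. A match describes the letters only. A promoter was matched for 126 of the 186 protein-coding genes restricted to 22Rv1 (67.7%) and 193 of the 263 restricted to PC3 (73.4%), which is under the 80% needed, so the planned comparison of these letters between the lines' genes is void.

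Androgen-response genes and luminal identity separated the lines. Of 30 genes listed for the androgen response and prostate luminal cells 26 reached 1 FPKM, and 18 of these were higher in 22Rv1 and 2 in PC3, at a median log2 ratio of 2.57 against 0.10 for all genes. In the treated pair the median was 2.47. In a bulk library, fewer cells of a type and less RNA per cell cannot be told apart.

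Among the secreted kallikrein proteases, KLK4 was at 288 and 429 FPKM in untreated and treated 22Rv1 and at 0.0173 and 0 in PC3. KLK2 was at 13.1 and 20.4 FPKM and KLK3, which encodes prostate-specific antigen, at 3.80 and 4.59 FPKM in 22Rv1, and both genes were listed at 0 in both PC3 libraries. Both 22Rv1 libraries therefore lay above both PC3 libraries for each kallikrein, although KLK3 was the lowest of the 3. FOLH1, the prostate-specific membrane antigen, was at 46.8 FPKM against 0.0211, and FKBP5, a co-chaperone of steroid receptors and a classic androgen target, at 274 against 12.4 FPKM.

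Membrane proteins of the luminal list followed, with SLC45A3 at 82.2 FPKM in 22Rv1 against 4.15 in PC3, STEAP1 at 97.8 against 7.96 and STEAP2, a metalloreductase, at 52.0 against 2.77. Some luminal factors were present in both lines. FOXA1, a pioneer factor that opens chromatin in luminal cells, was at 160 FPKM in 22Rv1 and 29.2 in PC3, and SPDEF, an ETS factor of secretory epithelium, at 67.4 against 17.4. HOXB13, a homeobox factor of the prostate, was higher in PC3 at 175 FPKM against 86.5 in untreated cells, just past the limit at a log2 ratio of -1.01, and was at 100 against 67.0 in treated cells (-0.57). ABCC4, an efflux pump, was the other member higher in PC3, at 6.08 against 1.19 FPKM. TMPRSS2, a surface protease, reached 5.99 FPKM in 22Rv1 and 2.32 in PC3.

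The 12 luminal markers used to check the labels all reached 1 FPKM in untreated 22Rv1, with a summed level of 1093 FPKM, and 6 did so in PC3, with a sum of 419. In PC3 much of that sum came from HOXB13, KRT8 and KRT18, while KLK2 and KLK3 were at 0. Basal markers were absent or low in both lines, with KRT5 listed at 0 in both lines and summed levels of 0.837 and 8.87 FPKM.

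Few steroid-metabolising enzymes were detected. Of 25 listed genes 9 reached 1 FPKM, with 2 higher in each line, a share close to that of all genes, and a median of 0.48. SRD5A3, a polyprenol reductase of the steroid 5-alpha-reductase family, was at 11.1 FPKM in 22Rv1 and 2.88 in PC3. HSD17B2, which inactivates testosterone and estradiol, was listed at 0 in 22Rv1 and at 7.96 FPKM in PC3, and AKR1C3, which makes testosterone from androstenedione, at 0.950 and 3.09 FPKM.

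Nuclear receptors were on the whole not higher in 22Rv1. Among 23 of 32 listed receptors that reached 1 FPKM, 4 were higher in 22Rv1 and 8 in PC3, at a median of -0.17 that was 0.25 in the treated pair. Among all genes the shares were 19.7% and 19.2%. PPARG, the fatty acid receptor that drives adipocyte and urothelial programmes, was listed at 0 in untreated 22Rv1 and at 50.4 FPKM in PC3. NR3C1, the glucocorticoid receptor, was at 0.209 against 6.85 FPKM, a log2 ratio of -2.70, and PPARD, the ubiquitous relative of PPARG, at 4.22 against 33.4. NR2F1 and NR2F2, the COUP-TF orphan receptors, were at 13.7 against 52.0 and 6.33 against 25.2 FPKM. On the 22Rv1 side stood RARB, a retinoic acid receptor, at 6.44 FPKM against 0.0617 in PC3.

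**Figure D2:**
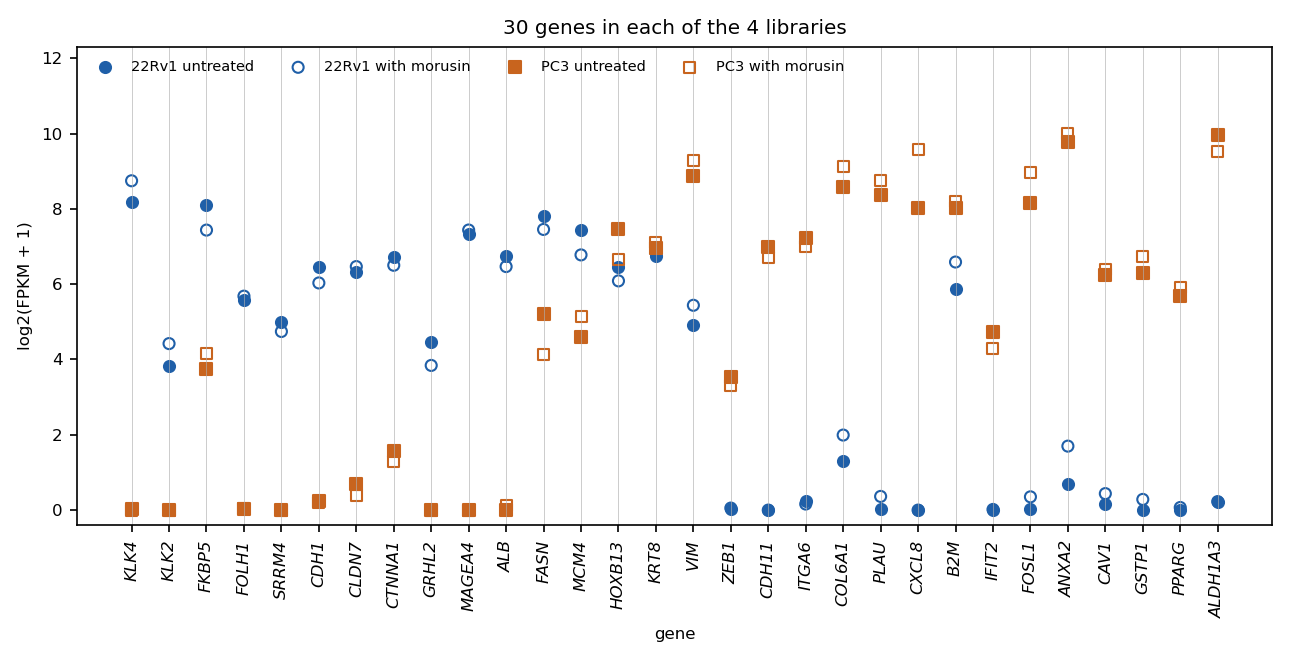
Levels of 30 genes as log2(FPKM + 1) in each of the 4 libraries, with filled symbols for untreated and open symbols for morusin-treated cells, circles for 22Rv1 and squares for PC3. Each symbol is 1 library, and the 2 libraries of a line lie close together beside the gap between lines for most genes. KRT8 differed little between the untreated lines, at a log2 ratio of -0.22, and HOXB13 was just past the 2-fold limit at -1.01.

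Some genes of basal and squamous epithelium were present in PC3, without the factor and most of the keratins that define basal cells. Of 17 listed genes 8 reached 1 FPKM, and all 8 of these were higher in PC3, at a median of -4.50. TP63, the master factor of basal cells, and the basal keratins KRT5 and KRT14 stayed below 1 FPKM in both lines, and KRT15 alone among the keratins listed here reached 8.84 FPKM in PC3, against 0.785. The other 7 were mostly adhesion and matrix genes. ITGA6 and ITGB4, the 2 chains of the hemidesmosome integrin, were at 148 and 37.6 FPKM in PC3 and at 0.172 and 0.168 in 22Rv1. LAMB3, a laminin chain of the basement membrane, was at 32.8 FPKM in PC3 against 0.0431. CD44, a hyaluronan receptor, was at 118 against 9.26 FPKM, and SERPINB5 (maspin) at 56.8 against 0.0437.

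Keratins split by type. KRT8 and KRT18, the paired keratins of simple epithelium, were nearly equal, at 107 and 103 FPKM in 22Rv1 and 125 and 111 in PC3, with log2 ratios of -0.22 and -0.10. KRT7, a keratin of ducts and urothelium, was at 0.475 against 299 FPKM. The hair keratins KRT81, KRT83 and KRT86 were listed at 0 in 22Rv1 and stood at 848, 49.4 and 14.6 FPKM in PC3, and their sequences are similar enough that reads may have been split among them. Of 13 listed keratins 9 reached 1 FPKM, with 0 higher in 22Rv1 and 6 in PC3.

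Neuroendocrine genes, which mark hormone-secreting cells and some treatment-resistant prostate cancers, were on the 22Rv1 side. Of 20 listed genes 10 reached 1 FPKM, with 7 higher in 22Rv1, 2 in PC3, at a median of 2.0, or 1.65 in the treated pair. SRRM4, a splicing factor for neuronal microexons, was at 30.7 and 25.8 FPKM in untreated and treated 22Rv1 and listed at 0 in both PC3 libraries. SYP, the vesicle protein synaptophysin, was at 20.9 against 0.399 FPKM, SCG3, a granin of secretory granules, at 16.3 against a listed 0, and the granins CHGA and CHGB at 1.66 and 2.63 FPKM against 0. NEUROD1, a neuroendocrine transcription factor, was at 0 in both lines, and FOXA2, a further factor of the list, was at 25.3 FPKM in PC3 against a listed 0. Some genes outside the list were chosen after their values had been seen. CBLN2, a synaptic organiser, was at 132 FPKM against 0 and SYT4, a vesicle calcium sensor, at 75.6 against 0. VGF, a neuropeptide precursor, was at 138 against 0.783 and NEFH, a neurofilament, at 39.8 against 0. NEFL, another neurofilament, ran the other way, at 57.5 FPKM in PC3 and 0.0194 in 22Rv1. Of 8 neuroendocrine markers used to check the labels, 3 reached 1 FPKM in untreated 22Rv1 and 0 in untreated PC3.

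Cell adhesion genes showed an epithelial set in 22Rv1 and a mesenchymal set in PC3. CDH1, which encodes E-cadherin, was at 86.3 and 64.5 FPKM in untreated and treated 22Rv1 and at 0.190 and 0.144 in PC3. CTNNA1, the alpha-catenin that ties cadherins to actin, was at 104 and 89.7 FPKM against 1.99 and 1.43. For both genes the 22Rv1 libraries lay far above the PC3 libraries, at log2 ratios of 6.2 and 5.13 in the untreated pair. Counting errors were 0.21 and 0.055 on the log2 scale, and they refer to the ratios without the added 1. The partners that hold E-cadherin to the cytoskeleton were otherwise present in both lines, CTNNB1 (beta-catenin) at 101 and 73.2 FPKM and CTNND1 (p120) at 49.6 in each.

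Of 35 genes listed for epithelial adhesion and junctions 34 reached 1 FPKM, with 19 higher in 22Rv1 and 6 in PC3, at a median of 1.13. CLDN7, a tight-junction claudin, was at 79.8 against 0.628 FPKM, GRHL2, a factor that maintains epithelial identity, at 20.9 against 0.00474, and ESRP1, which sets epithelial splicing, at 37.4 against 0.401. ST14 (matriptase) was at 27.8 FPKM in 22Rv1 and 0.127 in PC3, and its inhibitor SPINT1 at 66.8 and 10.7. Other claudins ran the opposite way, with CLDN4 at 121 FPKM in PC3 and 12.8 in 22Rv1, and CLDN3 at 37.3 and 6.24. The tight-junction scaffold TJP1 was also higher in PC3, at 33.7 against 15.7 FPKM. EPCAM was at 25.1 FPKM in 22Rv1 and 10.6 in PC3.

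Of 34 mesenchymal genes 26 reached 1 FPKM, and 1 was higher in 22Rv1 and 20 in PC3, at a median of -2.86. CDH11, a mesenchymal cadherin, was listed at 0 in both 22Rv1 libraries and at 127 and 103 FPKM in untreated and treated PC3. VIM, the intermediate filament vimentin, was at 29.4 and 42.4 FPKM in 22Rv1 and 472 and 625 in PC3, so that 22Rv1 was lower but not without it. N-cadherin (CDH2) was at 27.0 FPKM in PC3 against 0.0431 and AXL, a receptor kinase of mesenchymal cells, at 69.4 against 0.0499. Among the transcription factors of this state, ZEB1, a repressor of CDH1, was at 10.6 FPKM in PC3 and 0.0222 in 22Rv1, whereas TWIST1 was at 7.99 and 8.41 and did not differ by the limit. SNAI2 was the 1 member higher in 22Rv1, at 13.7 against 1.31 FPKM, and in the treated pair it was at 7.01 against 5.29 (0.35). Fibroblast markers, checked beside these genes, summed to 2.81 FPKM in 22Rv1 and 3.87 in PC3, with 1 of 6 at 1 FPKM in each line, and their part in the result was not tested.

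Integrins and the matrix they bind were mostly higher in PC3. Of 20 listed integrin chains 12 reached 1 FPKM, with 1 higher in 22Rv1 and 8 in PC3, at a median of -2.10. ITGB1, the shared beta chain, was at 598 FPKM in PC3 and 105.1 in 22Rv1, ITGA3, a laminin receptor chain, at 198 and 2.88, and ITGA2, a collagen receptor chain, at 54.9 and 1.12. ITGB5, a chain of vitronectin receptors, was higher in 22Rv1 at 28.2 against 10.5 FPKM. Among laminins, collagens and other matrix genes 27 of 32 reached 1 FPKM, and 3 were higher in 22Rv1 and 23 in PC3 (median -2.42). COL6A1 and COL6A2, chains of microfibrillar collagen VI, were at 380 and 283 FPKM in PC3 against 1.45 and 1.37, and HSPG2 (perlecan) was at 40.9 against 0.145. COL9A3, a cartilage collagen chain, led the 22Rv1 side at 24.5 against 0.273 FPKM, and LAMC1, the common laminin gamma chain, was at 35.0 against 10.8.

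Annexins and S100 proteins, calcium-binding partners at the plasma membrane, were almost uniformly on the PC3 side. Of 28 listed genes 19 reached 1 FPKM, with 0 higher in 22Rv1 and 18 in PC3, at a median of -2.89 in the untreated and -2.90 in the treated pair. ANXA2, which forms a complex with S100A10, was at 870 FPKM in untreated PC3 and 0.610 in untreated 22Rv1. S100A6 was at 458 against 3.56 FPKM, S100A16 at 256 against 0.0576 and ANXA1, a substrate of growth factor receptors, at 123 against 0.334. ANXA4 was the exception, at 16.4 FPKM in 22Rv1 and 13 in PC3. Caveolar genes followed with CAV1, the coat protein of caveolae, at 74.9 FPKM in PC3 and 0.116 in 22Rv1, and CAV2 at 12.1 and 0.0144. Their partner CAVIN1 was listed at 0 in untreated PC3, at 0.0250 FPKM in treated PC3 and at 1.70 in untreated 22Rv1. MYOF, a membrane repair ferlin, was at 111 FPKM in PC3 and 0.229 in 22Rv1.

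The plasminogen activators and matrix proteases were also on the PC3 side. PLAU, which encodes urokinase, was at 330 and 434 FPKM in untreated and treated PC3 and at 0.0161 and 0.286 in 22Rv1. PLAT, the tissue-type activator, was at 488 and 558 FPKM against 0.792 and 0.850. The urokinase receptor PLAUR was at 24.4 against 2.51 FPKM. Of 37 listed proteases and inhibitors 28 reached 1 FPKM, with 3 higher in 22Rv1 and 18 in PC3, at a median of -1.25. The collagenases MMP1 and MMP13 were listed at 0 in 22Rv1 and at 9.5 and 28.7 FPKM in PC3, and MMP14, a membrane-bound activator of other metalloproteases, was at 24.5 against 0.596. TIMP2, a metalloprotease inhibitor, was at 117 against 0.511 FPKM. MMP15, MMP24 and SERPINI1 were the 3 higher in 22Rv1, MMP15 at 11.1 against 2.24 FPKM.

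**Figure D3:**
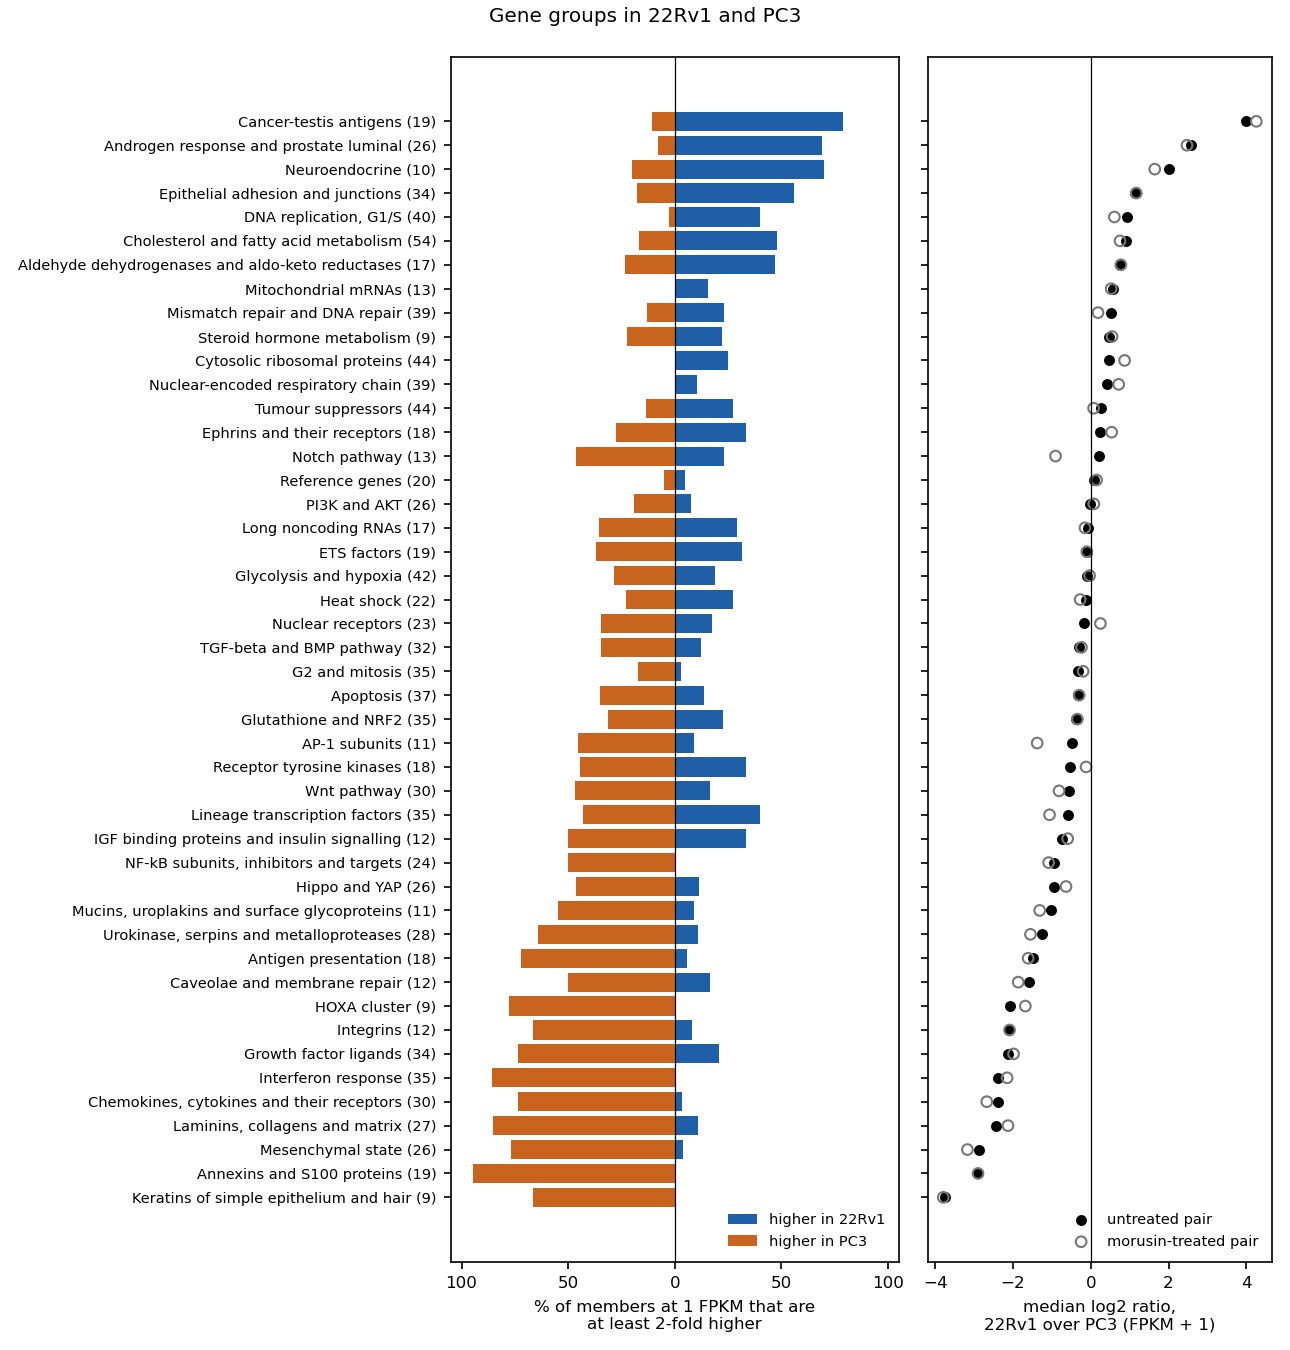
For each gene group with at least 9 members at 1 FPKM (number in brackets), bars on the left give the percentage of those members at least 2-fold higher in 22Rv1 (blue) or PC3 (orange), and points on the right give the median log2 ratio in the untreated (filled) and treated (open) pair. Among all genes compared 19.7% were higher in 22Rv1 and 19.2% in PC3. The groups run from cancer-testis antigens at a median of 3.99 to keratins at -3.76. These medians cover only members at 1 FPKM, and a member low in 1 line entered through the other.

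A group of chemokine and cytokine genes was expressed in PC3 and listed at 0 in untreated 22Rv1. CXCL8, the neutrophil chemokine interleukin 8, was listed at 0 in both 22Rv1 libraries and at 258 and 765 FPKM in untreated and treated PC3. Its relatives CXCL1, CXCL6, CXCL2 and CXCL3, which act on the same receptors, were listed at 0 in untreated 22Rv1 and stood at 115, 52.6, 20.1 and 16.3 FPKM in untreated PC3. These are the genes whose start regions are printed above. Of 42 listed chemokines, cytokines and receptors 30 reached 1 FPKM, with 1 higher in 22Rv1 and 22 in PC3, at a median of -2.37. IL1B, the cytokine interleukin 1 beta, and IL18 were at 24.3 and 32.1 FPKM in PC3, each against a listed 0, while LIF, of the interleukin 6 family, was at 30.5 against 0.653. The receptor IL1R1 was the member higher in 22Rv1, at 2.48 against 0.295 FPKM.

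The main subunits of NF-kB, a factor that switches on such genes, differed by less than 2-fold, while some listed targets differed more. Any part of NF-kB in the chemokine difference was not tested. RELA and NFKB1, the subunits of the main NF-kB dimer, had log2 ratios of -0.26 and -0.50, and their inhibitor NFKBIA was at 39.2 FPKM in 22Rv1 and 40.9 in PC3. Of 25 listed subunits, inhibitors and targets 24 reached 1 FPKM, with 0 higher in 22Rv1, 12 higher in PC3 and 12 less than 2-fold apart. ICAM1, an adhesion molecule for leukocytes, was at 51.1 against 0.522 FPKM, BIRC3, an inhibitor of apoptosis, at 6.62 against 0.0136 and TNFAIP3, a feedback inhibitor, at 4.18 against 0.0873. Leukocyte markers were low in both libraries apart from CD68, a lysosomal protein of macrophages, at 26 FPKM in PC3 and 0.348 in 22Rv1. Their summed level was 0.810 FPKM in 22Rv1 and 26.2 in PC3, and their part in the result was not tested.

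Interferon-response genes, which cells switch on after sensing viral nucleic acid or interferon, were also on the PC3 side. Of 41 listed genes 35 reached 1 FPKM, with 0 higher in 22Rv1 and 30 in PC3, at a median of -2.37, or -2.15 in the treated pair. IFIT1, IFIT3 and OAS1, effectors against viral RNA, were listed at 0 in both 22Rv1 libraries and stood at 12.4, 11.8 and 17.4 FPKM in untreated PC3. IFI6 was at 18.7 FPKM against a listed 0, and IFITM3, which blocks viral entry, at 121 against 7.36. The sensors were lower in 22Rv1 as well, with CGAS, the DNA sensor, at 0.0226 against 7.85 FPKM, its partner STING1 at a listed 0 against 6.89 and RIGI, an RNA sensor, at 0.885 against 9.67. USP18, a negative regulator, was at 5.01 FPKM in 22Rv1 and 4.09 in PC3. Of 7 listed APOBEC3 deaminases 5 reached 1 FPKM, and these 5 were higher in PC3, against 19.2% of all genes. APOBEC3C led them at 349 against 0.00699 FPKM. In 22Rv1 the 7 summed to 8.29 FPKM, of which APOBEC3B made up 7.09. The other members therefore mostly entered the count through PC3, and their direction was partly fixed by the filter.

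Antigen presentation genes ran the same way, with 1 of 18 members at 1 FPKM higher in 22Rv1 and 13 in PC3 (25 listed, median -1.48). HLA-B, a classical class I heavy chain, was at 26.8 FPKM in PC3 and 0.334 in 22Rv1, and HLA-C at 47.4 and 1.43. Reads of HLA genes map poorly where a line's alleles differ from the reference and can be shared among them, so these levels are uncertain. B2M, the invariant light chain, was at 257 FPKM in PC3 and 58.0 in 22Rv1, PSMB8, an immunoproteasome subunit, at 13.7 and 0.0300, and TAP2, a peptide transporter chain, at 15.6 and 2.37. The chaperones of the pathway, CALR and CANX, were alike in both lines, at 660 and 197 FPKM in 22Rv1 and 532 and 161 in PC3. TAPBPL, a peptide editor, was the member higher in 22Rv1, at 5.89 against 0.137 FPKM.

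Secreted growth factors were mostly a PC3 set. Of 50 listed ligands 34 reached 1 FPKM, with 7 higher in 22Rv1 and 25 in PC3, at a median of -2.13. DKK1, a secreted Wnt inhibitor, was at 322 FPKM in PC3 and 2.14 in 22Rv1. PTHLH, a parathyroid hormone relative that acts on bone, was at 61.6 against 0.0227 FPKM. Ligands of the EGF receptor, AREG, TGFA and HBEGF, were at 74.0, 20.6 and 15.7 FPKM against a listed 0, 0.190 and 1.02. The activin chains INHBA and INHBB were at 55.0 and 130 FPKM against 0.0213 and 13.2, and the activin-binding protein FST was at 182 against a listed 0. On the 22Rv1 side MDK, the heparin-binding factor midkine, was at 797 FPKM against 118, and VEGFA, the vascular growth factor, at 17.8 against 7.06.

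The receptors did not share that skew. Among 18 of 34 receptor tyrosine kinases that reached 1 FPKM, 6 were higher in 22Rv1 and 8 in PC3. EGFR, the EGF receptor, was higher in 22Rv1, at 97.2 and 55.4 FPKM in untreated and treated cells against 28.2 and 31.3, so the gap was 1.75 on the log2 scale in the untreated and 0.81 in the treated pair. ERBB3 and FGFR3, receptors for neuregulins and fibroblast growth factors, were at 32.6 against 3.75 and 21.7 against 0.0243 FPKM. MET, the receptor for hepatocyte growth factor, was at 69.4 FPKM in PC3 and 1.23 in 22Rv1. Eph receptors were split between the lines, with EPHA3 at 99.1 FPKM in 22Rv1 against 0.0124 and EPHA2 at 136 FPKM in PC3 against 4.66.

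IGF-binding proteins, which hold insulin-like growth factors in the extracellular space, were split in the same manner. IGFBP2 was at 116 FPKM in 22Rv1 and 3.23 in PC3. IGFBP4, IGFBP5, IGFBP6 and IGFBP3 were at 626, 194, 60.1 and 34.0 FPKM in PC3 and at 0.0341, 0.0510, 0 and 0.344 in 22Rv1. The insulin receptor substrates split, with IRS2 at 6.29 against 0.740 FPKM on the 22Rv1 side and IRS1 at 22.6 against 4.74 on the PC3 side, while INSR was at 5.18 and 4.56.

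Developmental signalling pathways were mixed. In the Wnt pathway 30 of 47 genes reached 1 FPKM, with 5 higher in 22Rv1 and 14 in PC3. The receptors FZD8, FZD4 and FZD2 were at 109, 18.8 and 14.1 FPKM in PC3 against 4.41, 1.16 and 1.04, and the ligand WNT7A at 16.4 against a listed 0. The transcription factor LEF1 was at 4.47 FPKM in 22Rv1 and 0.0303 in PC3. In the Notch pathway 3 of 13 genes at 1 FPKM were higher in 22Rv1 and 6 in PC3, at a median of 0.21 in the untreated and -0.90 in the treated pair. The ligand JAG1 was listed at 0 in 22Rv1 and at 16.7 FPKM in PC3, the ligand JAG2 at 11 and 3.83, and the target HES1 at 19.1 and 9.82 in untreated but 8.59 and 17.4 in treated cells.

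In the TGF-beta and BMP pathway 32 of 34 genes reached 1 FPKM, with 4 higher in 22Rv1 and 11 in PC3. TGFBR2, the type II receptor, was at 32.0 FPKM in PC3 and 0.283 in 22Rv1, SMAD3, a signal transducer, at 43.6 and 3.90, and the ligand TGFB1 at 34.4 and 5.65. SMAD7, the inhibitor, was at 6.65 FPKM in 22Rv1 and 0.625 in PC3, and ID3, an inhibitor of helix-loop-helix factors, at 101 and 7.06. For the Hippo pathway 26 of 30 genes reached 1 FPKM, with 3 higher in 22Rv1 and 12 in PC3. The coactivators YAP1 and WWTR1 (TAZ) were at 28.3 and 63.8 FPKM in PC3 and 4.91 and 3.94 in 22Rv1, and their targets CCN1 and CCN2 at 33.8 and 25.8 against 0.682 and 0.0286. AMOT, which holds YAP at junctions, was at 19.3 FPKM in 22Rv1 and 1.02 in PC3.

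AP-1, the dimeric factor of Fos, Jun and Maf proteins, differed most through 1 subunit. FOSL1 (FRA1) was at 285 and 499 FPKM in untreated and treated PC3 and at 0.0251 and 0.276 in 22Rv1. JUN and JUNB were at 22.7 and 29.9 FPKM in PC3 against 10.3 and 13.6, while JUND was at 16.7 against 29.3. Of 11 subunits that reached 1 FPKM of 16 listed, 1 was higher in 22Rv1 and 5 in PC3.

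Of 28 listed genes of the PI3K and AKT pathway, which carries growth factor signals into the cell, 26 reached 1 FPKM, and 19 of these differed by less than 2-fold, while 2 were higher in 22Rv1 and 5 in PC3. The PC3 share was that of all genes, 19.2%, and the 22Rv1 share lay below the 19.7% of all. PIK3R1, a regulatory subunit of PI3K, was at 6.66 FPKM in 22Rv1 and 2.58 in PC3. AKT1 was at 75.7 and 58.2 FPKM and MTOR at 14.5 and 17.3.

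Of 44 genes of the tumour suppressor list, all at 1 FPKM, 12 were higher in 22Rv1 and 6 in PC3, at a median of 0.25. Among all genes the shares were 19.7% and 19.2%, so the counts were not far from those of all genes. On the 22Rv1 side stood MDM2, a ubiquitin ligase, at 20.1 against 6.60 FPKM, BBC3 (PUMA), a death effector, at 11.3 against 0.623, and CDKN1A, the cell cycle inhibitor p21, at 16.2 against 6.76. On the PC3 side stood GDF15, a stress cytokine, at 33.1 against 6.55 FPKM. CDKN1A did not keep its gap in the treated pair, where the log2 ratio was -0.16. CDKN1B, its relative p27, was at 46.4 against 10.0 FPKM, and RB1 at 14.3 against 9.61.

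Genes of apoptosis were more often higher in PC3. Of 44 listed genes 37 reached 1 FPKM, with 5 higher in 22Rv1 and 13 in PC3. The initiator CASP8 was at 18.9 FPKM in PC3 and 0.190 in 22Rv1 and its adaptor FADD at 30.7 and 9.16. The inhibitor BCL2L1 (BCL-X) was at 195 against 26.2 FPKM, while BCL2, MCL1 and XIAP differed by less than 2-fold. The sensors BMF and BIK joined BBC3 on the 22Rv1 side, at 17.4 against 1.65 and 4.31 against 0.377 FPKM. PMAIP1, a further sensor of this kind, ran the other way, at 22.1 FPKM in PC3 and 1.68 in 22Rv1.

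DNA replication and mitosis differed from each other. Of 41 listed G1 and S phase genes 40 reached 1 FPKM, with 16 higher in 22Rv1 and 1 in PC3. The median was 0.94 in the untreated and 0.61 in the treated pair. Only 8 of the 16 were also 2-fold higher in 22Rv1 in the treated pair, against 85.7% of all genes higher in 22Rv1. The 1 member higher in PC3 did not stay 2-fold higher there. The helicase subunits MCM4, MCM7 and MCM2 were at 173, 314 and 156 FPKM in 22Rv1 and 23, 63.9 and 35.8 in PC3, but MCM3 at 65.4 and 55.7 differed little. The sliding clamp PCNA was at 239 against 88.2 FPKM and CCND1 (cyclin D1) at 475 against 202. CDK6 was the member higher in PC3, at 3.63 against 0.627 FPKM, while its relative CDK4 was at 65.4 FPKM in PC3 and 171 in 22Rv1. Among 35 mitosis genes, all at 1 FPKM, 28 differed by less than 2-fold, 1 was higher in 22Rv1 and 6 in PC3 (median -0.33). MKI67, the proliferation marker, was at 55.4 FPKM in 22Rv1 and 48.7 in PC3. AURKA and its activator TPX2, both on chromosome 20, were at 94.9 and 147 FPKM in PC3 against 25.9 and 66.1.

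Of 39 DNA repair genes 9 were higher in 22Rv1 and 5 in PC3, shares not far from the 19.7% and 19.2% of all genes. LIG1, the replicative ligase, was at 63.4 against 10.8 FPKM, UNG, which removes uracil, at 115 against 31.0 and PARP1, a sensor of strand breaks, at 355 against 161. MSH3, a mismatch repair subunit, was lower in 22Rv1 at 0.977 against 5.59 FPKM, whereas its relative MSH6 was at 16.2 against 21.0. MGMT, which repairs alkylated guanine, was at 0.0142 against 2.44 FPKM.

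Messenger RNAs of lipid metabolism genes were more often higher in 22Rv1 than in PC3. Of 57 genes of cholesterol and fatty acid metabolism 54 reached 1 FPKM, with 26 higher in 22Rv1 and 9 in PC3, at a median of 0.91. In the sterol pathway FDFT1 (squalene synthase) was at 173 and 152 FPKM in untreated and treated 22Rv1 and at 13 and 17 in PC3. SQLE, the enzyme after FDFT1, was at 27.1 against 31.0 FPKM and did not share the gap. In the fatty acid pathway FASN, the synthase, was at 224 and 174 FPKM in untreated and treated 22Rv1 and at 35.8 and 16.6 in PC3. ACACA, which makes its substrate, was at 41.1 against 10.4 FPKM and ELOVL6, an elongase, at 30.5 against 2.48. The controlling factors SREBF2 and SREBF1 were at 79.8 and 38.6 FPKM in 22Rv1 against 10.0 and 10.5. On the PC3 side stood ABCA1, a cholesterol exporter, at 3.26 against 0.0233 FPKM, PLIN3, a lipid droplet coat protein, at 116 against 14.5 and ACSL4, which activates arachidonic acid, at 20.3 against 0.839.

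Glycolysis genes lay on both sides. Of 47 listed glycolysis and hypoxia genes 42 reached 1 FPKM, with 8 higher in 22Rv1 and 12 in PC3 (median -0.10). The 22Rv1 share was close to the 19.7% of all genes, and the PC3 share lay somewhat above the 19.2% of all. LDHA and PKM, at the end of the pathway, were at 854 and 895 FPKM in PC3 against 276 and 336, and PFKP, the platelet form of phosphofructokinase, at 35.4 against 4.18. TPI1 was at 688 FPKM in 22Rv1 and 298 in PC3, and the lactate dehydrogenase chain LDHB at 485 and 246. HIF1A, the hypoxia factor, was at 110 FPKM in PC3 and 34.2 in 22Rv1.

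Aldehyde dehydrogenases were distributed between the lines by isoform. ALDH1A3, which makes retinoic acid, was at 999 and 732 FPKM in untreated and treated PC3 and at 0.171 and 0.169 in 22Rv1, the lowest log2 ratio of all genes compared (-9.74). ALDH3A2, which oxidises fatty aldehydes, was at 250 FPKM in 22Rv1 and 27.8 in PC3, and ALDH1L2, a mitochondrial folate enzyme, at 18.6 and 0.234. Of 24 aldehyde dehydrogenases and aldo-keto reductases 17 reached 1 FPKM, with 8 higher in 22Rv1 and 4 in PC3.

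For glutathione and NRF2 genes 8 of 35 at 1 FPKM were higher in 22Rv1 and 11 in PC3, beside 19.7% and 19.2% of all genes. GSTP1, a glutathione transferase that is silenced by methylation in many prostate cancers, was listed at 0 in untreated 22Rv1, at 0.217 FPKM in treated 22Rv1 and at 78.0 and 105.1 in PC3. NQO1 and TXNRD1, targets of NRF2, were at 68.8 and 333 FPKM in PC3 against 5.38 and 61.1. FTH1, the ferritin heavy chain, was the most abundant gene of untreated PC3 at 4441 FPKM against 455, while the light chain FTL was at 220 and 215. GPX4, which reduces lipid peroxides, was at 535 FPKM in 22Rv1 and 137 in PC3.

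Ribosomal and respiratory genes differed little but mostly one way. Of 44 cytosolic ribosomal protein genes 40 had positive log2 ratios, 11 were higher in 22Rv1 and 0 in PC3, at a median of 0.46 in the untreated and 0.87 in the treated pair. The list median stayed positive after median centring and after rescaling of the libraries. RPS2 was at 1822 FPKM in 22Rv1 and 784 in PC3, while RPL8 was at 1284 and 1196. RPS24, outside the list, was at 510 and 1697 FPKM. Nuclear-encoded respiratory genes had a median of 0.42, with 4 of 39 higher in 22Rv1 and 0 in PC3. The 13 mitochondrial mRNAs had a median of 0.57, with MT-CYB at 1106 against 375 FPKM. Among 20 reference genes 18 differed by less than 2-fold, with ACTB at 1692 and 1764 FPKM and GAPDH at 2264 and 1480.

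Of 22 chaperone genes at 1 FPKM 6 were higher in 22Rv1 and 5 in PC3, shares close to those of all genes. HSPB6, a small heat shock protein of muscle, was at 190 FPKM in 22Rv1 and 0.0988 in PC3, a log2 ratio of 7.44. HSPD1 and HSPE1, the mitochondrial chaperonins, were at 772 and 259 FPKM against 384 and 125, and BAG3, a co-chaperone of stressed cells, was at 106 FPKM in PC3 and 14.7 in 22Rv1. MT2A, a metallothionein, was at 442 FPKM in PC3 and 27.8 in 22Rv1, while MT1E and MT1G were at 3.49 and 2.51 FPKM in 22Rv1 and listed at 0 in PC3.

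Transcription factors of development gave each line its own set. Of 47 listed lineage factors 35 reached 1 FPKM, with 14 higher in 22Rv1 and 15 in PC3. Beside GRHL2, 22Rv1 had IRX3 and IRX5, Iroquois homeobox factors, at 23.4 and 9.29 FPKM against 0.00681 and 0, and GATA2, a zinc finger factor, at 76.1 against 10.4. PC3 had TFAP2C at 22.9 FPKM and FOXA2 at 25.3, both listed at 0 in 22Rv1, and SOX9, a factor of ducts and cartilage, at 53.2 against 5.61. Of 19 ETS factors at 1 FPKM 6 were higher in 22Rv1 and 7 in PC3, and 3 and 7 of these stayed so in the treated pair. ETS1, ETV4 and ELK3 were at 38.1, 76.6 and 23.2 FPKM in PC3 against a listed 0, 3.13 and 0.215. SPDEF, EHF and ELF3 were on the 22Rv1 side, EHF at 16.2 against 5.74. The HOXA cluster was on the PC3 side, with 7 of 9 genes at 1 FPKM higher and HOXA9 at 19.9 FPKM against a listed 0. In the HOXC cluster HOXC10 was higher in 22Rv1, at 6.16 against 0.603 FPKM.

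Cancer-testis antigens, genes normally confined to germ cells and many on the X chromosome, were a 22Rv1 set. Of 45 listed genes 19 reached 1 FPKM, with 15 higher in 22Rv1 and 2 in PC3, while 26 stayed below 1 FPKM in both lines. The median of the 19 was 3.99, or 4.26 in the treated pair. Many of the 19 reached 1 FPKM in 22Rv1 alone, so their direction was partly fixed by the filter. Over all 45 the median would fall among genes less than 2-fold apart. MAGEA4 was at 160 and 172 FPKM in untreated and treated 22Rv1 and listed at 0 in both PC3 libraries. CTAG2 was at 96.6 FPKM against 0 and MAGEC2 at 3.0 against 0. The near-identical pairs CTAG1A and CTAG1B (54.3 and 61.8 FPKM), SSX2 and SSX2B (56.4 and 57.1) and XAGE1A and XAGE1B (7.55 and 7.54) were all listed at 0 in untreated PC3, and how reads were divided within each pair is uncertain. PRAME and MAGED4 were the 2 higher in PC3, at 21.8 against 5.79 and 10.3 against 0.107 FPKM.

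Secreted proteins of liver and plasma were mostly low in both lines, with 24 of 28 listed genes below 1 FPKM. ALB, which encodes albumin, was an exception at 106 and 87.5 FPKM in untreated and treated 22Rv1 and 0.00891 and 0.0965 in PC3. CLU (clusterin), a secreted chaperone, was at 181 against 34.3 FPKM. Among long noncoding RNAs GAS5, the host gene of many small nucleolar RNAs, was at 173 FPKM in 22Rv1 and 14.5 in PC3. LINC02582 was at 346 FPKM in PC3 against a listed 0, and LNCAROD at 173 against 0. LINC00665 led the noncoding genes of 22Rv1 after the pseudogene RPL35P2, at 39.8 against 0.00600 FPKM. No source states if counting used strand, and levels of overlapping genes may include reads of each other.

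**Figure D4:**
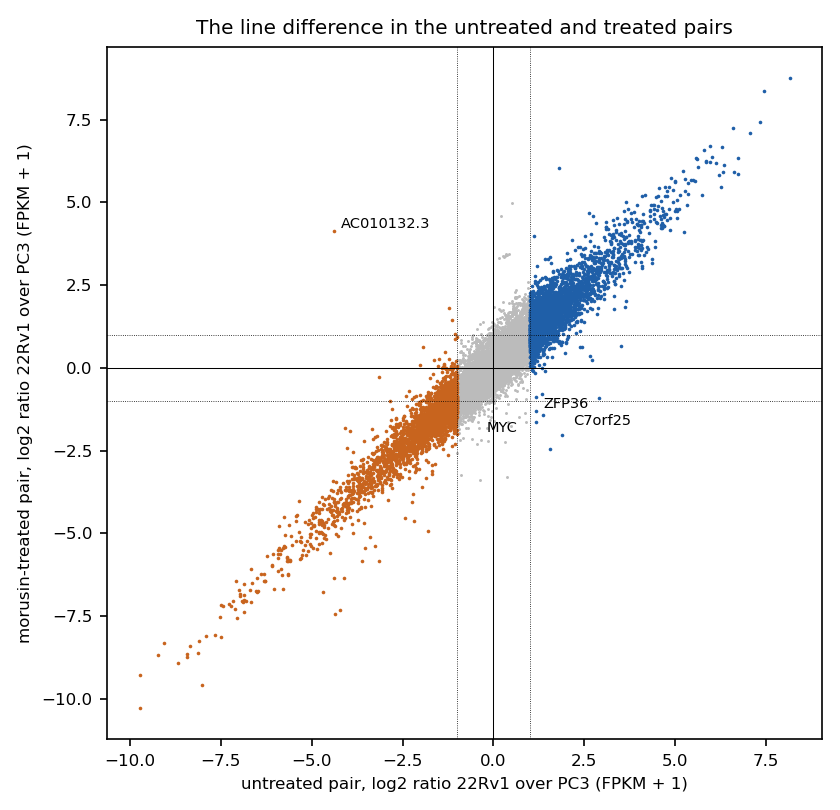
Each point is a gene compared in untreated cells, with its log2 ratio of 22Rv1 over PC3 in the untreated pair on the horizontal axis and in the morusin-treated pair on the vertical axis. Colours are those of the untreated call, dotted lines mark the 2-fold limits, and 9 genes lie beyond the limits in opposite directions, 4 of which are labelled.

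The differences were uneven along the genome. Positions are from GENCODE 29 on GRCh38. By chromosome the median log2 ratio ran from -0.60 on chromosome 20, where 26 of 346 genes were higher in 22Rv1 and 117 in PC3, to 0.51 on chromosome 22, where the counts were 95 and 26 of 302. Chromosomes 21 and 2 were also low at -0.45 and -0.36, and chromosomes 16 and 12 high at 0.43 and 0.41. The treated pair gave -0.48 for chromosome 20 and 0.72 for chromosome 22.

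Neighbouring protein-coding genes at 1 FPKM often differed together. Runs of 4 or more neighbours all higher in 22Rv1 numbered 58 and held 311 genes, and those all higher in PC3 numbered 82 with 403 genes. Over windows of 15 such neighbours, the highest median, 3.72, lay on X from 151396515 to 153183880 and held the MAGE-A and CSAG genes with MAGEA4. The next, 2.40, lay on chromosome 19 from 20776304 to 22532485 and held zinc finger genes only, from ZNF66 to ZNF98, of which 13 were higher in 22Rv1 and 0 in PC3. The longest run for 22Rv1 was in the same region, 14 zinc finger genes from ZNF708 to ZNF724. A further zinc finger window on chromosome 19, from 36888124 to 37817300, had a median of 2.04 with 11 of 15 genes higher in 22Rv1. Zinc finger genes of these clusters resemble one another, and reads may have been shared among them.

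On the PC3 side the lowest window, -2.35, lay on chromosome 6 from 24774931 to 26453415 and held histone genes beside the butyrophilins BTN3A1, BTN3A2, BTN3A3 and BTN2A2, with 12 of 15 genes higher in PC3. Most histone messages lack a poly(A) tail, and their levels in a library of polyadenylated RNA depend on how that step went. The second, -2.30, held the chemokines CXCL8 to CXCL2 with the EGF-receptor ligands AREG, EPGN and BTC on chromosome 4, and just before CXCL8 stood ALB, with the highest log2 ratio of the window. The longest run for PC3 was of 15 genes on chromosome 10 from SEC24C to VDAC2, including PLAU and VCL. Another, of 10 genes on chromosome 11, joined MAML2, YAP1, BIRC3, BIRC2, MMP1 and MMP13, and a run of 9 on chromosome 1 held S100 genes from S100A10 to S100A13.

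A stretch on chromosome 17 was listed at 0 in untreated PC3. KAT2A, a histone acetyltransferase, RAB5C, a small GTPase of early endosomes, GHDC, STAT5B, STAT5A, STAT3 and CAVIN1 lie in this order between 42113108 and 42423517. In untreated 22Rv1 they were at 46.4, 69.4, 6.55, 14.4, 4.94, 9.24 and 1.70 FPKM, and in untreated PC3 each was listed at 0. KCNH4 and HCRT, between RAB5C and GHDC, were at 0.390 FPKM and 0 in 22Rv1 and also at 0 in PC3. STAT3, the factor through which interleukin 6 family cytokines signal, rested on an estimated 1902 read pairs in 22Rv1 and was at 0 in treated PC3 too. In treated PC3 RAB5C was at 0.0632 FPKM and CAVIN1 at 0.0250, and the other 5 of these genes stayed at 0. The next gene, ATP6V0A1, a proton pump subunit, was at 22.4 FPKM in untreated 22Rv1 and 0.0547 in untreated PC3. Beyond it NAGLU, COASY and MLX were present in PC3 at 3.03, 34.0 and 16.1 FPKM, against 11.5, 41.4 and 28 in 22Rv1. The genes on each side of STAT3 were looked up after these values had been seen.

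**Figure D5:**
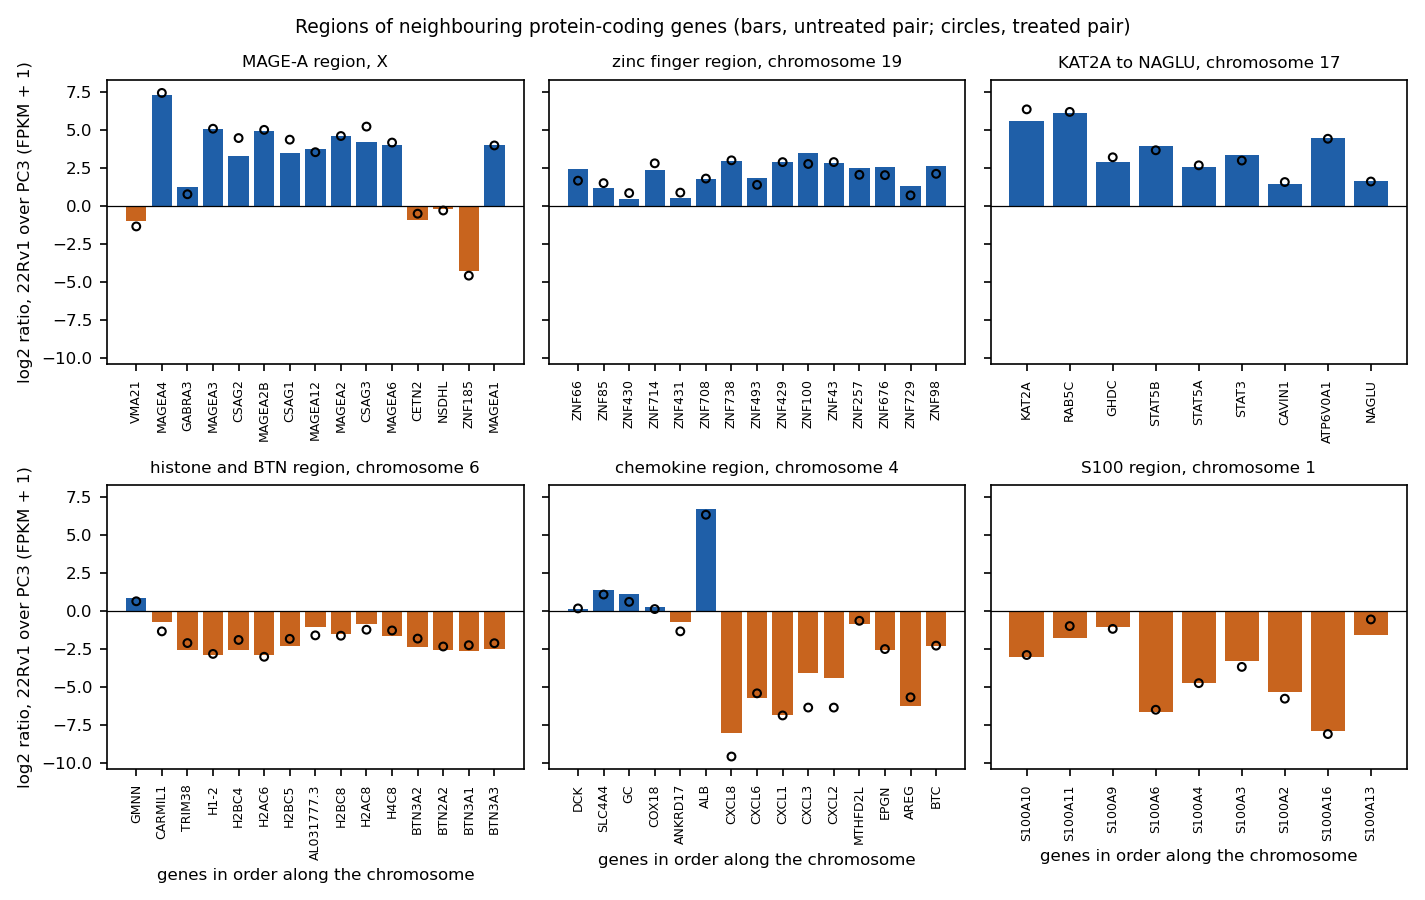
Log2 ratios of neighbouring protein-coding genes in order along 6 regions, as bars for the untreated and circles for the treated pair, with blue bars higher in 22Rv1 and orange bars higher in PC3. The upper regions are mostly higher in 22Rv1 and the lower regions mostly higher in PC3, with ALB standing at 6.73 beside CXCL8 at -8.01.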

How the data were processed

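RNA of 4 libraries, 1 for each line and treatment, was made into TruSeq RNA v2 libraries and read on a HiSeq2500 as 150-base pairs, per the labels' protocols. The authors deposited FPKM values for 60617 Ensembl gene IDs. The submitters' processing notes name Trimmomatic, HISAT2, StringTie and the build GRCh38. Tool versions, the annotation release and strand use were not found in the labels or the file header. FPKM is relative to each library's total, so abundant genes move all others. From the deposited FPKM, log2 ratios were computed with a pseudocount of 1, for genes at 1 FPKM or more in at least 1 untreated library, with Python 3.11.15, numpy 2.4.6 and pandas 2.3.3. Depth was estimated from the steps of low FPKM × length in single-exon genes of 600 to 5000 bases (tolerance 1.5%), where 58 of 1126 and 81 of 1459 low values lay at the step, so it is rough. Symbols were matched for 60261 IDs, and positions came from GENCODE 29. The members and the 54 gene lists were chosen with earlier results of these data known. Genes named are the 30 protein-coding and 10 noncoding genes with the largest ratios each way, the 6 largest and 3 smallest differences of each list, other list members where counted, the genes of the windows and longest runs, and a few neighbours and other genes chosen after their values were seen. Some genes that met this rule are not reported here. Alternatives were other pseudocounts, filters, scalings and limits and the treated pair.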

Additional observations from a re-analysis of the deposited data

Results flagged for a closer look

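For 9 genes the 2 pairs of libraries differed at least 2-fold in opposite directions. The difference between the pairs was not tested, since each rests on 1 library a side. MYC, a growth-promoting transcription factor, was at 149 FPKM in untreated 22Rv1 and 65.7 in untreated PC3 and at 69.6 and 219 in treated cells, so the log2 ratio went from 1.17 to -1.64. ZFP36, which destabilises mRNAs, was at 6.02 and 2.14 FPKM untreated and 5.54 and 15.1 treated, a ratio of 1.16 and then -1.30.

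For the other 7 genes the log2 ratios of the untreated and then the treated pair are given. C7orf25 went from 1.90 to -2.03 and AC010132.3, which overlaps it on chromosome 7, from -4.40 to 4.14. ATP6V1G2-DDX39B had a ratio of -1.22 in the untreated and 1.80 in the treated pair, and AC008763.2 of -1.13 and 1.45. AC023055.1 went from 1.57 to -2.46, PMF1-BGLAP from 1.37 to -1.42 and AC004922.1 from -1.05 to 1.04.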

How the results depend on the processing

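Of the named genes at 2-fold, 10 turned their direction, all in the treated pair: CDKN1A went to -0.16, MYC to -1.64, ZFP36 to -1.30, C7orf25 to -2.03, AC010132.3 to 4.14, ATP6V1G2-DDX39B to 1.80, AC023055.1 to -2.46, PMF1-BGLAP to -1.42, AC008763.2 to 1.45 and AC004922.1 to 1.04 on the log2 scale. The cause was not tested. A pseudocount of 5 left 1316 genes higher in 22Rv1 and 1419 higher in PC3. With a high limit of 10 FPKM, 107 genes were restricted to 22Rv1 and 186 to PC3, and with a low limit of 0.5 FPKM the PC3 count was 472. The other settings moved these counts by less than 1.5 times. Genes higher in 22Rv1 made up 50.7% of those called as deposited, 44.7% after median centring, 46.9% after rescaling to equal sums and 57.7% in the treated pair. Of 687 named genes 529 were at 2-fold, and 450 of these stayed so with a pseudocount of 5 and 490 in the treated pair. Of 54 list medians 22 were at 2-fold, and 22 stayed so after centring or rescaling, 13 with a pseudocount of 5 and 14 with no filter on low values. The median of the reference genes, 0.08, became -0.03 after centring. Each group held 1 library, so leaving out a replicate could not be done. No paired analysis was possible because the groups have 1 library each and no test was run.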
